A study of Mus musculus with 9 samples.

Results

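The genes described here are 9 that receive, move, activate or answer thyroid hormone: the receptors and their partner Thra, Thrb and Rxrb, the coregulators Ncor1, Ncoa1 and Hr, the transporter Slc16a10, the activating deiodinase Dio2 and the response gene Klf9. They were taken by name from a table of 38293 mouse genes, and all 9 of 9 passed the filter on low counts that left 15318 genes to test. The table holds raw read counts from poly(A) RNA of cardiac ventricles at postnatal day 7 (P7). There were 5 libraries of Arid1a f/f control mice and 4 of αMHC-Cre;Arid1a f/f mice (Arid1a cKO), littermates by the series' design text, and the study states a C57B/6J background. Both groups carried the floxed Arid1a gene and only the mutants carried Cre, so Cre and the deletion cannot be told apart. The αMHC promoter drives Cre in cardiomyocytes, which leaves Arid1a in the other ventricular cells of the mutants.

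Thyroid hormone leaves the gland mostly as thyroxine (T4), enters cells through membrane transporters and is converted inside them to the active form, triiodothyronine (T3), by outer-ring deiodination. T3 binds nuclear receptors that sit on DNA with a retinoid X receptor: without hormone they hold corepressors such as NCOR1, and with hormone they exchange them for coactivators such as NCOA1. In the mouse heart the hormone surges after birth and is known for moving contractile, calcium-handling and ion-channel genes towards the adult pattern.

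In Arid1a cKO ventricles Dio2, the enzyme that makes T3, was 8.71-fold higher than in controls, from 7.87 ± 0.928 to 68.6 ± 19.1 CPM (counts scaled to a library of 1000000; mean ± SD, n = 5 and 4). Thra, Ncoa1 and Slc16a10 fell by 25.8%, 17.6% and 15.1%. Thrb, Rxrb, Ncor1, Hr and Klf9 did not pass the test. Differences were tested with edgeR's quasi-likelihood test and p-values adjusted over all 15318 genes; a gene passed at an adjusted p under 0.05 and is said to be called where its fold change was also over 1.5. Of the 9 genes 1 was called, against 6.72% of all genes tested. By the adjusted p alone, 1 was higher, against 8.25% of all genes, and 3 were lower, against 8.03%. The groups did not overlap for 4 of the 9, against 16.7% of all genes. Their median log2 fold change (log2 FC) was -0.11, beside 0.01 over all genes tested.

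Library totals ran from 31011055 to 40073801 reads. Arid1a, the targeted gene, fell from 139.8 ± 8.84 to 106.4 ± 5.44 CPM (log2 FC -0.39, SE 0.06, adjusted p = 0.00132). Cardiomyocyte markers summed to 24938 to 29310 CPM in controls and 22509 to 24882 CPM in cKO libraries, and 1 of 7, Myl2, was lower past the adjusted p, beside 8.03% of all genes tested, while 2 of 7 passed by DESeq2, beside 18.9%. Skeletal muscle markers summed to at most 1.02 CPM. Libraries stood apart by Rps3a3, a gene annotated as ribosomal: it lay between 0.345 and 0.521 CPM in control replicates 1 and 2 and cKO replicates 1 to 3, and between 99.7 and 112.3 CPM in control replicates 3 to 5 and cKO replicate 4. Differences within these 2 sets are given beside the results as log2 differences within the Rps3a3-low and the Rps3a3-high libraries, the latter resting on 1 cKO library.

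The start regions of Dio2 and Slc16a10 are shown because these are the genes of hormone supply, and they moved in opposite directions. The windows are from RefSeq on GRCm38.p6, run 5′ to 3′ on the gene's own strand, and hold 250 bases before the annotated start and 50 from it on. Capitals in the Dio2 window mark a cAMP response element, TGACGTCA, at position -95 from the start, and a TATA box, TATAAA, at position -30. The Dio2 window is chr12:90738989-90739288 and the Slc16a10 window chr10:40142205-40142504, both on the minus strand. The GENCODE M21 model of Dio2 ends at 90738438, short of the RefSeq start.
Dio2: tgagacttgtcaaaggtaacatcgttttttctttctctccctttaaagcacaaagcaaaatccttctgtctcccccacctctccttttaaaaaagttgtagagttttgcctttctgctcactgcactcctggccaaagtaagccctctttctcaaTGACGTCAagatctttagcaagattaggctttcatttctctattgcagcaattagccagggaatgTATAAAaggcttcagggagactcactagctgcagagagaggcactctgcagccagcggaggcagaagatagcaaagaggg
Slc16a10: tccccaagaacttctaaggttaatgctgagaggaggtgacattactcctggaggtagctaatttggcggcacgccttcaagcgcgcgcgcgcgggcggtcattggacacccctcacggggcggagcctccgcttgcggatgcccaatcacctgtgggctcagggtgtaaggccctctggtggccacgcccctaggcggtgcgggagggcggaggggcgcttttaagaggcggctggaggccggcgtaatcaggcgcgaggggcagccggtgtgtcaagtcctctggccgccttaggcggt
Searched on both strands, TGACGTCA was in 1.79% of 32851 promoter windows of that length, and in 1 of the 10 windows that 7 of the genes had there, that of Dio2. TATAAA was in 13.6% of all windows and in 2 of the 10, those of Dio2 and of a second Thrb start. The receptor's core letters AGGTCA were in 16.3% of all windows and in 1 of the 10, a Thrb window, at position -184. The direct repeat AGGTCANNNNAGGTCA was in 0.0152% of all windows and in 0 of the 10. The Slc16a10 window held none of the 4 motifs. Thra and Hr are without an entry.

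Dio2 (ENSMUSG00000007682, GRCm38 chromosome 12, 90724552 to 90738438, minus strand) encodes the type 2 deiodinase, a selenium-containing enzyme that turns T4 into T3 inside the cell. Control replicates 1 to 5 held 7.88, 9.09, 6.51, 8.15 and 7.73 CPM, and cKO replicates 1 to 4 held 75.9, 40.0, 79.5 and 78.8 CPM. Values of other genes follow the same order of libraries. All cKO libraries were above every control, and cKO replicate 2 lay apart from the other cKO libraries. The log2 FC was 3.12 (SE 0.19, adjusted p = 3.23e-06). Among the Rps3a3-low libraries the difference was 2.81 and among the others 3.32. Dio2 was called in 18 of 18 alternative fits, with log2 FCs from 2.94 to 3.31. Counts lay between 235 and 3256 per library. In bulk tissue, fewer cells of a type and less RNA per cell cannot be told apart, and neither can more of each.

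The lncRNA Gm26512 (ENSMUSG00000097157, chromosome 12, 90738201 to 90869235) is annotated on the opposite strand from the Dio2 start and shares 100 exon bases with Dio2, which is 1.72% of the Dio2 exons. It was listed at 0.12, 0.232, 0.111, 0.0944 and 0.162 CPM in the controls and at 1.43, 1.06, 1.94 and 1.91 CPM in the cKO libraries, on counts of only 3 to 79 per library, with the lowest cKO value in replicate 2. Every control was under the minimum count of 10, so the gene passed the filter only through the cKO libraries, and these values are given without a test. The kit marks strand, but the setting used for counting is not given in the sources used here, so reads of the shared bases could belong to either gene.

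Brown fat is a known site of Dio2, so adipocyte markers were read beside it. Cidea, a lipid droplet protein, rose from 29.4 ± 3.15 to 54.8 ± 4.39 CPM (log2 FC 0.90, SE 0.09, adjusted p = 3.71e-05). The 4 adipocyte markers summed to 26.0 to 33.3 CPM in controls and 49.2 to 59.4 CPM in cKO libraries, nearly all of it Cidea, since the defining markers Ucp1, Adipoq and Plin1 were too low to be tested. Ucp1 stood at 0 in 3 controls, 0.535 and 0.55 CPM in the others, and at 0, 0, 4.92 and 0.0726 CPM among the cKO libraries, whereas Adipoq was at most 0.492 CPM and Plin1 at most 0.203 CPM in any library. The cKO libraries with Ucp1 at 0 had Dio2 at 75.9 and 40.0 CPM, and cKO replicate 3, with the most Ucp1 and Adipoq, had the highest Dio2 at 79.5 CPM. Fibroblast markers also moved: 4 of 7 were higher, beside 8.25% of all genes, 0 of them by more than 1.5-fold, with summed levels of 4133 to 4715 CPM in controls and 5435 to 5758 CPM in cKO libraries. Endothelial markers summed to 1275 to 1385 and 1263 to 1351 CPM. The part of other cell types in the Dio2 level was not tested.

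Among the 10709 expressed genes compared, the profiles most like that of Dio2 over the 9 libraries were those of Sntg2, which encodes a syntrophin, and Aldoc, which encodes an aldolase. Likeness was the root mean square difference of log2 CPM after each gene was centred on its own mean, 0.36 for Sntg2 and 0.44 for Aldoc, while Dio2 itself varied by 1.52 on that scale. Their log2 FCs were 3.31 (SE 0.18, adjusted p = 4.11e-07) and 2.90 (SE 0.23, adjusted p = 7.42e-06). Since both genes were picked for their likeness to Dio2 over these same libraries, the choice fixed these values, which are given as a description.

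Slc16a10 (ENSMUSG00000019838, chromosome 10, 40033532 to 40142258, minus strand) encodes MCT10, a transporter of aromatic amino acids and T3. Its levels were 24.7, 23.8, 23.8, 23.8 and 21.5 CPM in controls and 19.6, 19.8, 20.5 and 20.0 CPM in cKO libraries. The groups did not overlap, but the lowest control came close to the highest cKO library. The log2 FC was -0.24 (SE 0.07, adjusted p = 0.0349), with -0.28 and -0.20 inside the Rps3a3-low and the Rps3a3-high set. The direction held in 18 of 18 alternative fits, but only 6 of them passed. Among fits that left out 1 library, it passed only without control replicate 5 (adjusted p = 0.025) while the adjusted p rose to as much as 0.0793 in the other 8.

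**Figure D1:**
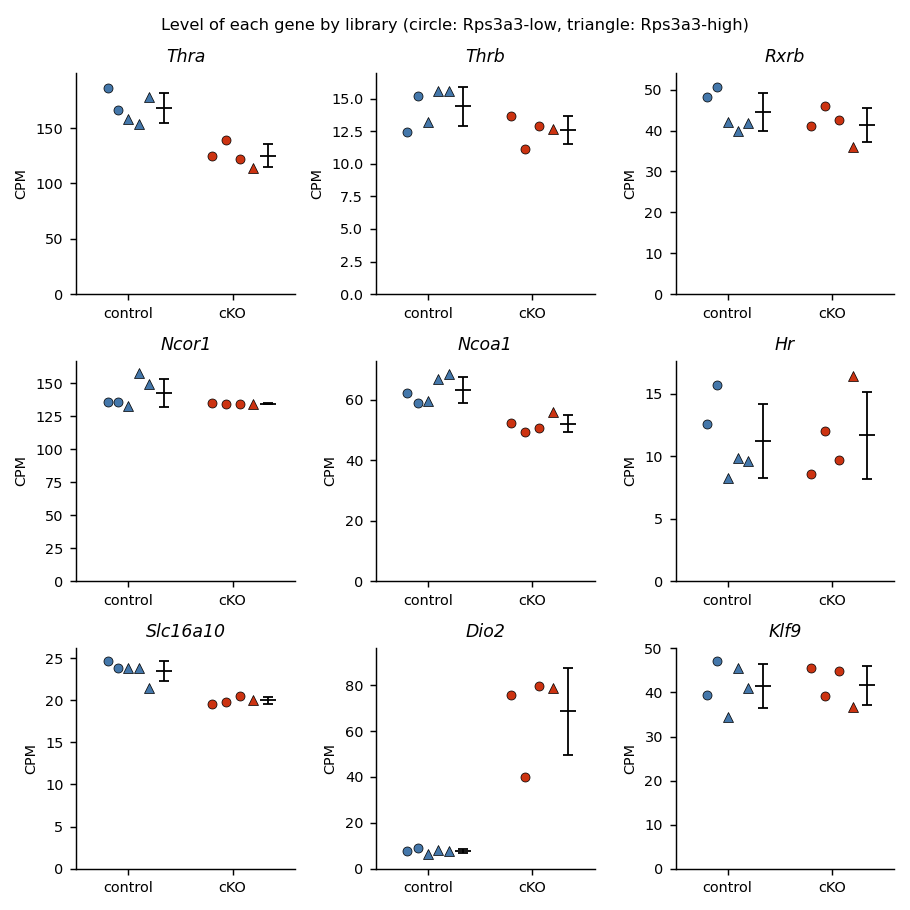
Level of each of the 9 genes in every library, in CPM on linear axes from 0. Points are libraries (circles Rps3a3-low, triangles Rps3a3-high) and bars are mean ± SD of 5 controls (blue) and 4 cKO libraries (red). Dio2 is higher in all cKO libraries, with replicate 2 at 40.0 CPM below the other cKO points, and Thra, Ncoa1 and Slc16a10 are lower without overlap.

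Thra (ENSMUSG00000058756, chromosome 11, 98740638 to 98769006, plus strand) encodes the receptor that predominates in heart. It was at 186.5, 166.3, 157.9, 154.0 and 177.7 CPM in controls and at 124.7, 139.2, 122.0 and 114.2 CPM in cKO libraries. Every cKO library lay below every control. The mean fell from 168.5 ± 13.6 to 125.0 ± 10.4 CPM, a log2 FC of -0.43 (SE 0.08, adjusted p = 0.00234), with -0.45 and -0.51 within the Rps3a3-low and Rps3a3-high libraries. It passed in 18 of 18 alternative fits. The summed cardiomyocyte markers given above were also lower in cKO libraries, but the listed genes moved both ways. Myl2 fell from 9977 ± 732.1 to 7395 ± 314.9 CPM. The means of Actn2 (log2 FC 0.22, adjusted p = 0.109) and Nkx2-5 (0.40, adjusted p = 0.394) were higher, and those of the other listed markers lower. The part of cardiomyocyte content in the levels of Thra, Ncoa1 and Slc16a10 was not tested. Thra makes a hormone-binding and a non-binding protein by splicing at its 3′ end, and counts per gene pool these. Its exons overlap those of Nr1d1, a circadian repressor on the opposite strand, over 263 bases, or 5.7% of the Thra exons. Nr1d1 itself was at 28.0 ± 4.22 and 24.4 ± 3.91 CPM (log2 FC -0.20, SE 0.13, adjusted p = 0.325).

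Thrb (ENSMUSG00000021779, chromosome 14, 17660261 to 18038090, plus strand), the other receptor gene, was read at 12.4, 15.2, 13.2, 15.6 and 15.6 CPM in controls against 13.7, 11.1, 12.9 and 12.7 CPM in cKO libraries, and the groups overlapped. Its log2 FC of -0.19 (SE 0.10, adjusted p = 0.234) had an interval of 2 SE either side from -0.40 to 0.01. It passed in 0 of 18 alternative fits. Per kilobase of exon, Thra exceeded Thrb by 24.1, 17.5, 19.3, 15.8 and 18.3 times in controls and by 14.6, 20.1, 15.2 and 14.5 times in cKO libraries. These ratios overlapped and were not tested, since both genes were chosen for this description.

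Rxrb (ENSMUSG00000039656, chromosome 17, 34031812 to 34038399, plus strand) encodes a retinoid X receptor, the partner with which thyroid receptors bind DNA. Its levels of 48.2, 50.7, 42.2, 40.0 and 41.9 CPM in controls and 41.0, 46.0, 42.5 and 35.9 CPM in cKO libraries overlapped. The log2 FC was -0.11 (SE 0.09, adjusted p = 0.469, interval -0.29 to 0.08). Control replicates 1 and 2, both Rps3a3-low, were the highest of the controls. With the library set as a term the difference was -0.20 and passed (adjusted p = 0.0423), the only 1 of 18 alternative fits in which it did.

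Of the other 2 retinoid X receptor genes, Rxrg passed. It stood at 23.5, 32.0, 18.7, 19.8 and 19.5 CPM in controls and at 12.0, 11.9, 10.1 and 4.84 CPM in cKO libraries, without overlap. The log2 FC was -1.23 (SE 0.27, adjusted p = 0.0109), and it passed in 18 of 18 alternative fits. Rxra, named after its values were seen, was at 64.1 ± 4.52 and 66.0 ± 4.14 CPM (log2 FC 0.04, SE 0.07, adjusted p = 0.734).

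Ncor1 (ENSMUSG00000018501, chromosome 11, 62316426 to 62458541, minus strand) encodes the corepressor that holds histone deacetylase 3 on unliganded receptors. It was measured at 136.2, 136.2, 133.0, 158.0 and 149.8 CPM in controls and at 134.8, 134.3, 134.6 and 134.0 CPM in cKO libraries. The cKO values lay together inside the control range, and the log2 FC was -0.09 (SE 0.06, adjusted p = 0.386, interval -0.21 to 0.04).

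Ncoa1 (ENSMUSG00000020647, chromosome 12, 4247362 to 4477182, minus strand) encodes the coactivator SRC-1, which binds receptors carrying hormone. Its levels were 62.3, 59.0, 59.7, 67.1 and 68.6 CPM in controls and 52.3, 49.4, 50.9 and 56.1 CPM in cKO libraries. The groups did not overlap, and the mean fell from 63.3 ± 4.34 to 52.2 ± 2.89 CPM (log2 FC -0.28, SE 0.07, adjusted p = 0.017). The difference within the Rps3a3-low and Rps3a3-high libraries was -0.25 and -0.21. It passed in 16 of 18 alternative fits, and did not in the Rps3a3-low libraries alone (adjusted p = 0.159) or without cKO replicate 3 (adjusted p = 0.0554).

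Hr (ENSMUSG00000022096, chromosome 14, 70552212 to 70573548, plus strand) encodes hairless, a corepressor of thyroid receptors and a T3-induced gene in brain. It was at 12.6, 15.7, 8.28, 9.88 and 9.60 CPM in controls and at 8.59, 12.0, 9.68 and 16.4 CPM in cKO libraries. The groups overlapped throughout, and its coefficients of variation, 26.5% and 29.7%, were the highest of the 9 genes in each group. The log2 FC was 0.06 (SE 0.22, adjusted p = 0.89), and its interval from -0.38 to 0.50 leaves changes of either sign. The Rps3a3-low libraries gave a difference of -0.48 and the Rps3a3-high ones 0.80, so its sign turned between the sets.

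Klf9 (ENSMUSG00000033863, chromosome 19, 23141226 to 23168134, plus strand) encodes a zinc finger factor that T3 and glucocorticoids raise in many cells. Its levels were 39.4, 47.1, 34.4, 45.5 and 40.9 CPM in controls and 45.6, 39.3, 44.9 and 36.6 CPM in cKO libraries. The means of 41.4 ± 5.06 and 41.6 ± 4.37 CPM gave a log2 FC of 0.00 (SE 0.10, adjusted p = 0.982), with an interval from -0.20 to 0.21. Both sets gave differences near 0, 0.00 and -0.13.

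Compared per length, as CPM per kilobase of exon, Thra led in controls at 36.5 ± 2.94, above Rxrb at 11.2 ± 1.16 and Ncor1 at 11.1 ± 0.839. Then came Klf9 at 8.61 ± 1.05 and Ncoa1 at 7.39 ± 0.506, with Slc16a10 at 3.20 ± 0.163. Thrb at 1.94 ± 0.202, Hr at 1.62 ± 0.43 and Dio2 at 1.35 ± 0.16 were lowest. Control ranges overlapped between Rxrb and Ncor1, Klf9 and Ncoa1, Thrb and Hr, and Hr and Dio2, so those neighbours were not separated. In cKO libraries Dio2 stood at 11.8 ± 3.29 CPM per kilobase, in place 2 of 9 where it had been in place 9, and its cKO range of 6.87 to 13.7 overlapped those of Rxrb, Ncor1 and Klf9.

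**Figure D2:**
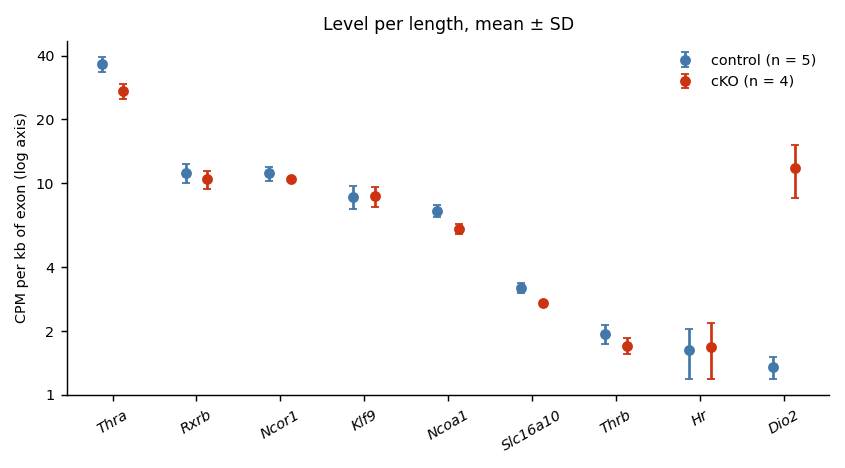
Mean ± SD of CPM per kilobase of exon for the 9 genes in 5 control (blue) and 4 cKO (red) libraries, on a log axis, ordered by control level. Thra is highest in both groups, and Dio2 moves from 1.35 to 11.8, the level of Rxrb and Ncor1.

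The wider pathway was read in 5 lists of 44 genes, of which 42 were tested. Of these, 12 passed, 3 higher and 9 lower, beside 8.25% and 8.03% of all genes tested, and 6 were called, 1 higher and 5 lower, beside 6.72%. Their median log2 FC was -0.11, beside 0.01 over all genes, and the groups did not overlap for 10 of them, beside 16.7% of all genes. The 3 higher genes were Nppa, Hcn2 and Slc7a5, of which Hcn2 and Slc7a5 did not pass in several alternative fits.

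Among 12 further coregulators, which include p300, the mediator subunit Med1 and the deacetylase complex of NCOR1, 0 passed by edgeR, beside 8.25% higher and 8.03% lower over all genes tested. In the same list 3 had an unadjusted p under 0.05, beside 29.7% of all genes, and 2 passed by DESeq2, beside 18.9%. The median log2 FC was -0.11, beside 0.01.

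Of 11 genes for transport, deiodination and binding, 9 were tested, and 1 was higher and 1 lower, beside 8.25% and 8.03% of all genes. The median log2 FC of the list was 0.01, as over all genes. Secisbp2, which encodes the protein that lets ribosomes read UGA as selenocysteine, as in deiodinases, stood at 39.1, 39.2, 40.1, 36.5 and 40.6 CPM in controls and at 25.0, 25.3, 24.4 and 23.7 CPM in cKO libraries. The groups lay far apart, with a log2 FC of -0.67 (SE 0.06, adjusted p = 1.82e-05), and it passed in 18 of 18 alternative fits. Slc7a5, the large subunit of an amino acid exchanger that also carries thyroid hormone, was at 15.7, 12.3, 12.7, 13.5 and 13.2 CPM in controls and 13.5, 20.9, 18.3 and 24.9 CPM in cKO libraries. Its cKO replicate 1 lay inside the control range. It rose (log2 FC 0.53, SE 0.15, adjusted p = 0.0327) and passed in 8 of 18 alternative fits. Dio1, the other activating deiodinase, had 0 counts in all 9 libraries, and Dio3, which inactivates the hormone, had at most 1, under the 3 counts (0.075 to 0.097 CPM) that a count of 0 allows by counting error alone.

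**Figure D3:**
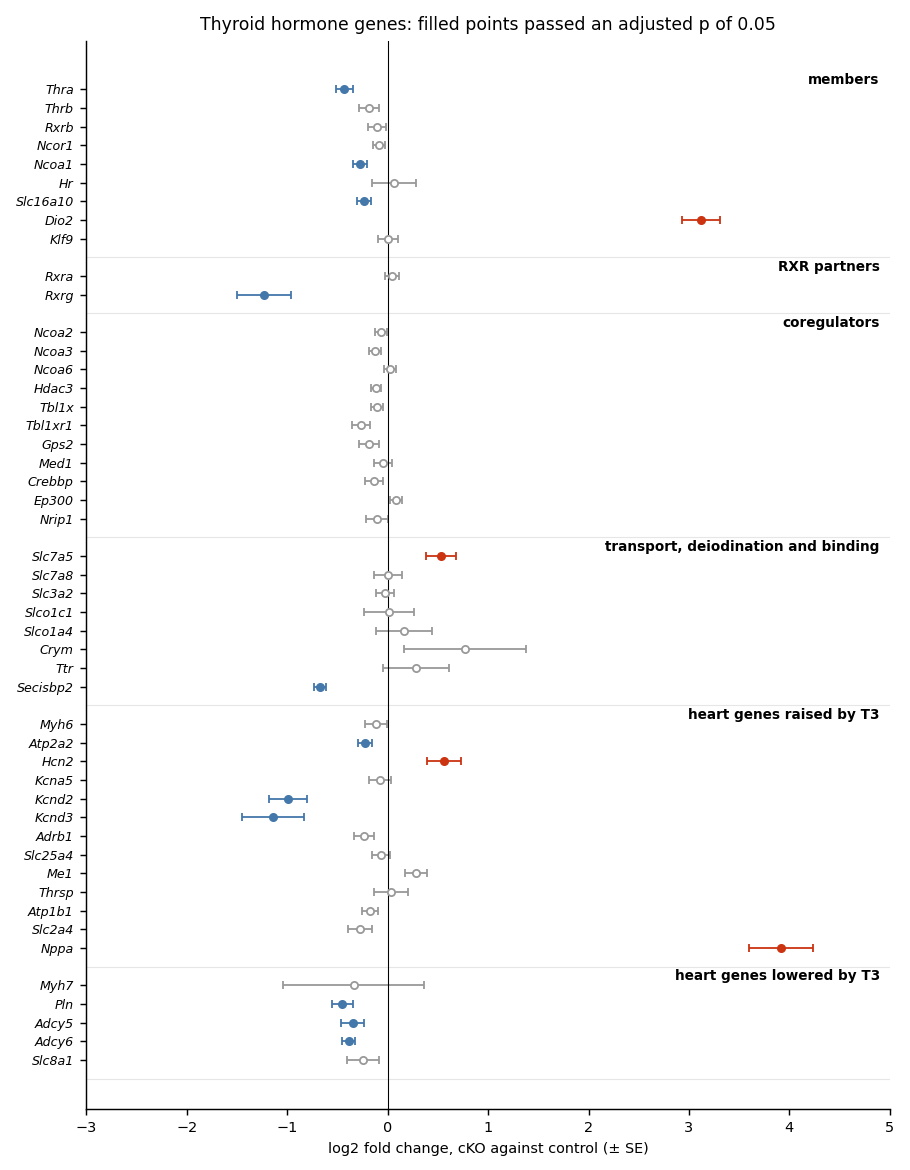
Log2 fold change, cKO against control, ± SE from edgeR for the 9 genes and tested genes of 5 pathway lists. Filled points passed an adjusted p of 0.05 (red higher, blue lower) and open grey points did not. Dio2 at 3.12 and Nppa at 3.92 are the highest points, and Rxrg at -1.23 lies among the lower ones.

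Of 14 heart genes that T3 is known to raise, 2 were higher and 4 lower, beside 8.25% and 8.03% of all genes tested, and 8 did not pass. Their median log2 FC was -0.15, beside 0.01 over all genes. The potassium channel gene Kcnd2 fell from 14.7 ± 2.42 to 7.42 ± 2.24 CPM (log2 FC -0.99, SE 0.19, adjusted p = 0.00435), and Kcnd3 from 3.20 ± 0.806 to 1.45 ± 0.743 CPM (-1.14, SE 0.31, adjusted p = 0.0251). For Kcnd3 the groups overlapped and 11 of 18 alternative fits passed.
Nppa, the atrial natriuretic peptide gene that also rises in stressed ventricle, went from 113.9 ± 9.18 to 1721 ± 724.0 CPM (log2 FC 3.92, SE 0.32, adjusted p = 0.000121), though the Rps3a3-low libraries alone did not pass (3.70, adjusted p = 0.0625). Among 3 atrial markers only Myl7 passed, as higher, beside 8.25% of all genes tested. It went from 44.8 ± 14.3 to 102.8 ± 14.1 CPM. The mean of Sln was lower (log2 FC -1.25, SE 0.67, adjusted p = 0.262), and that of Myl4 was slightly higher (0.16, SE 0.25, adjusted p = 0.71). The summed level of the list was 60.5 to 137.2 CPM in controls and 126.6 to 190.0 CPM in cKO libraries. The part of atrial tissue in the Nppa level was not tested. The pacemaker channel gene Hcn2 rose from 20.3 ± 4.29 to 30.1 ± 5.83 CPM (0.56, SE 0.17, adjusted p = 0.042) and passed in 9 of 18 alternative fits. Atp2a2, the calcium pump of the sarcoplasmic reticulum, fell from 8868 ± 565.8 to 7557 ± 569.8 CPM (-0.23, SE 0.07, adjusted p = 0.0458) and passed in 7 of 18.

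Of 5 heart genes that T3 is known to lower, 3 were lower and 0 higher, beside 8.03% and 8.25% of all genes tested, with a median log2 FC of -0.35, beside 0.01. Pln, the inhibitor of that pump, fell from 5871 ± 392.9 to 4307 ± 670.4 CPM (-0.45, SE 0.10, adjusted p = 0.00875). In the Rps3a3-low libraries alone it was also lower but did not pass (-0.35, adjusted p = 0.162). The adenylyl cyclase genes Adcy6 (-0.39, SE 0.06, adjusted p = 0.000692) and Adcy5 (-0.35, SE 0.11, adjusted p = 0.049) were lower as well. Both kept that direction in 18 of 18 alternative fits, of which Adcy6 passed in 18 and Adcy5 in 7. Both lists thus included members that were lower in cKO ventricles.

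The log2 ratio of Atp2a2 to Pln, genes that T3 moves in opposite directions, was 0.65, 0.68, 0.39, 0.58 and 0.68 in controls and 0.68, 0.95, 0.76 and 0.89 in cKO libraries. It was higher by 0.23 in cKO ventricles (exact two-sided permutation p = 0.0159, 0.0317 adjusted over 2 ratios, where the smallest possible p was 0.00794). With labels permuted within the library sets the exact p was 0.05, and leaving out 1 library raised it to between 0.0536 and 0.107 in 6 of 9 cases. The log2 ratio of the myosin heavy chain genes Myh6 to Myh7, which also move in opposite directions with T3, was 5.09 ± 1.41 and 5.23 ± 0.974, a difference of 0.14 (exact permutation p = 0.889). Myh7 itself ran from 115.8 to 1040 CPM among controls, so the spread within the group exceeded the difference between groups.

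**Figure D4:**
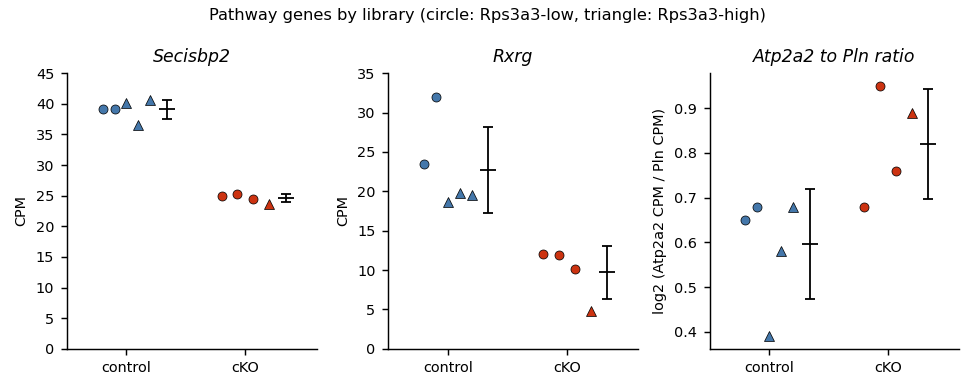
Secisbp2 and Rxrg in CPM, and the log2 ratio of Atp2a2 to Pln, in every library (circles Rps3a3-low, triangles Rps3a3-high; bars mean ± SD of 5 controls and 4 cKO libraries). Secisbp2 and Rxrg do not overlap between groups, and for the ratio the lowest cKO value of 0.68 sits at the highest controls.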

How the data were processed

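The authors deposited 1 table of raw read counts per Ensembl gene for 9 libraries, made from Trizol RNA with a stranded TruSeq mRNA kit. The submitters' processing notes name STAR 2.4.2a, HTSeq 0.6.1 and mm10; annotation, strand setting and sex per library are not given in the sources used here. Symbols and coordinates came from GENCODE M21 on GRCm38, with symbols for 36429 of 38293 IDs. Counts were tested in edgeR 4.0.16 (R 4.3.3; filterByExpr with a minimum count of 10, TMM, robust quasi-likelihood F test, Benjamini-Hochberg over all genes) with genotype only. CPM were counts per 1000000 of the TMM-scaled total of tested genes. SEs are the log2 fold change over the square root of F. DESeq2 1.42.0 was an alternative. Tests were checked on simulated counts.

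The 9 genes, the lists and the tests were chosen with earlier results of these data known. Named genes were the 9, all called genes and up to 3 others past the adjusted p in each list, ratio genes, annotated overlaps, and the 2 profiles most like each called gene; some of these are not reported here. The study used pups of either sex. Its methods mention 4 controls, while its results give 5 control and 4 mutant hearts, as labelled; all were used. The study thus counts hearts as its n, though the labels name no animals; p-values measure the spread between these libraries. The self-made library sets were split at 10 CPM of Rps3a3. Differences within them are of mean log2 (CPM + 0.5). Replicate numbers did not pair the libraries.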

Additional observations from a re-analysis of the deposited data

Results flagged for a closer look

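Dio2 in cKO replicate 2, at 40.0 CPM, lay far from the other 3 cKO libraries, which were at 75.9 to 79.5 CPM: its gap to the nearest was 0.907 of the whole range of the group. It was the 1 flagged of 20 groups of values examined with Dixon's 95% critical value, which chance passes in about 1 of 20 groups. Without this library the log2 fold change of Dio2 was 3.31, and with it 3.12.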

How the results depend on the processing

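Dio2 was called, and Thra passed, in all 18 alternative fits of edgeR and DESeq2, and Thrb and Ncor1 passed in 0 of 18. The Rps3a3-low libraries alone, 2 controls and 3 cKO, gave 620 called genes in place of 1030, 50.5% of them higher in place of 59.6%, and 0 pathway genes higher in place of 3. There Slc16a10 (-0.28), Ncoa1 (-0.25) and Arid1a (-0.33) kept their direction but did not pass, with fewer libraries in the fit, and Hr turned to -0.49 (adjusted p = 0.19). Slc16a10 also did not pass with no filter on low counts (-0.24), with the Xist level as a covariate (-0.24) or with the replicate number as a block (-0.27). The replicate block, which drops control replicate 5, called 879 genes, put Hr at -0.01 and Klf9 at 0.00, just under zero, and changed no other call among the 9 genes and Arid1a. Same-numbered libraries deviated together with correlations of -0.052, 0.067, -0.008 and 0.302, so the numbers were not taken as pairs. With the library set as a term Klf9 was -0.05 and Rxrb -0.20, which passed. Klf9 was also just under zero, at 0.00, with no filter. With Xist 1 pathway gene was higher. For the ratio of Atp2a2 to Pln, labels permuted within the sets kept 0.23 but gave an exact p of 0.05.

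Leaving out 1 library at a time gave Slc16a10 -0.27 to -0.22, Ncoa1 -0.32 to -0.25, Klf9 -0.06 to 0.06, Hr -0.15 to 0.21, the ratio of Atp2a2 to Pln 0.17 to 0.27, the ratio of Myh6 to Myh7 -0.20 to 0.75, and 1 to 4 pathway genes higher. The pathway count fell to 1 without control replicate 3, 4 or 5 or cKO replicate 2 or 3. The exact permutation p of the ratio of Atp2a2 to Pln, here not adjusted over the 2 ratios, was 0.0536 to 0.107 without control replicate 1, 3, 4 or 5 or cKO replicate 2 or 4. It was 0.0179 to 0.0357, also unadjusted, in the other fits that left out 1 library. Of the pathway genes, Slc7a5 passed only without control replicate 1 or cKO replicate 1 (0.38 to 0.66 over the 9 fits), Atp2a2 only without cKO replicate 1 (-0.27 to -0.19), Adcy5 only without control replicate 3 or cKO replicate 2 (-0.42 to -0.27) and Hcn2 only without control replicate 1 or 2 or cKO replicate 4 (0.48 to 0.69). Kcnd3 did not pass without control replicate 4 or 5 or cKO replicate 2, 3 or 4 (-1.54 to -0.95). The causes of these shifts were not tested.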

Other observations

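Because Dio2 is a selenoprotein and Secisbp2 acts on all of them, 18 other selenoprotein genes were read. This list was made after the values of Secisbp2 were seen, and is given as a description. All 18 were tested; 4 were higher and 2 lower past the adjusted p of edgeR, beside 8.25% and 8.03% of all genes tested, and 1 was called, beside 6.72%. Their median log2 fold change was 0.13, with a range from -0.38 to 0.73. Gpx4, a glutathione peroxidase that protects membrane lipids, rose from 107.3 ± 11.1 to 157.0 ± 16.3 CPM (log2 fold change 0.55, SE 0.09, adjusted p = 0.00136). Selenom, an endoplasmic reticulum protein, rose from 15.7 ± 3.18 to 25.9 ± 6.38 CPM (0.73, SE 0.17, adjusted p = 0.0141). Txnrd3, a thioredoxin reductase, fell from 35.8 ± 1.89 to 27.6 ± 1.5 CPM (-0.38, SE 0.07, adjusted p = 0.00247).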
